A study of Mus musculus with 4 samples.

Results

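A group of 10 genes for secreted or surface-bound immune signals was read out by RNA-seq in mouse splenic B cells that had been stimulated with LPS, the outer membrane lipid of Gram-negative bacteria that Toll-like receptor 4 senses on B cells. They comprise the cytokine genes Il10, Il6 and Ebi3, the tumour necrosis factor (TNF) family ligand genes Tnf, Lta and Ltb, and the chemokine ligand genes Ccl3, Ccl4, Ccl5 and Ccl22. These members were taken by gene symbol, and all 10 are among the 30041 genes listed in each of the 4 samples. Of the 10 genes, 9 had a score of at least 0.005 in a sample and were among the 9727 genes tested, and Il6 did not reach that level.

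There were 2 control and 2 cKO samples of splenic B cells from C57BL/6 mice, each numbered 1 and 2 and cultured with LPS for 72 h. The cKO mice were Nfkbiz fl/Δ Mb1 cre/+, with 1 floxed and 1 deleted allele of Nfkbiz and the Cre recombinase driven from the B cell gene Cd79a (mb-1). The labels say only "control" for the other group, and the comparison strain in the study's methods is Nfkbiz fl/Δ without Cre, so that both groups carry the deleted allele and only the cKO group carries Cre. Loss of Nfkbiz and the presence of Cre at Cd79a cannot be told apart in this design. The B cells had been purified by removing cells that carry CD43, CD4 or Ter-119. The labels give 20 mg/ml LPS, and the study's text gives the same number in μg/ml. The age of the mice and whether a sample was 1 mouse or a pool were not given in the sources used here, and the labels do not say that the 2 samples of a group came from separate animals or cultures, so that the p-values measure the spread between these samples only.

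Nfkbiz encodes IκB-ζ, an inducible nuclear protein of the IκB family that binds NF-κB dimers at a subset of their target genes. Activated B cells secrete cytokines and chemokines as well as antibody. IL-10 dampens the activity of T cells and myeloid cells and is the best-known product of regulatory B cells, IL-6 drives helper T cell and plasma cell responses, and the Ebi3 protein is the shared subunit of IL-27 and IL-35. TNF is the prototype inflammatory ligand of its family, and lymphotoxins α and β, the products of Lta and Ltb, shape lymphoid tissue. The chemokines Ccl3, Ccl4 and Ccl5 attract monocytes and activated T cells, and Ccl22 attracts cells that bear Ccr4.

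The deposited values are scores with no stated unit. They behaved as reads per base of exon, scaled to library size, since most low scores, multiplied by exon length, lay near steps. On the assumption that 1 step is 1 read, the samples held 17500000 to 19900000 reads, and that assumption rests on the values alone. Nfkbiz itself, the targeted gene, had scores of 0.0241 and 0.0226 in control B cells and 0.0127 and 0.0116 in cKO B cells, and fell by 0.94 on the log2 scale (limma adjusted p = 0.0282). Cd79a, whose locus drives Cre, fell by 0.78 (limma adjusted p = 0.0294), from 0.667 and 0.743 to 0.415 and 0.407. Control 2 stood apart from the other 3 samples at a gene of the major histocompatibility complex on chromosome 17, H2-Ea-ps. Its score there was 1.15, against 0.00008 in control 1 and 0 in both cKO samples. This was not the only such gene. Msh5, Ng23, H2-M2 and D17H6S56E-3, which are in the study's own list, also had scores in control 2 well above those of the other 3 samples. Values without control 2 are therefore given beside the results of the members that they change. They are not given for the genes of the related lists, some of which they also change.

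The groups were compared by limma on log2(score + 0.0001), and p-values were adjusted by the Benjamini-Hochberg method for all 9727 genes, at a threshold of 0.05. A difference is given as cKO minus control on this log2 scale. Ccl3 and Ccl5 rose in cKO B cells, and 0 of the 9 tested members fell. In the same test 79 of the 9727 genes (0.812%) rose and 122 (1.25%) fell. At an unadjusted p under 0.05 there were 5 members on the higher side and 2 on the lower side, against 1052 (10.8%) and 1117 (11.5%) of all tested genes. Both cKO scores lay above both control scores for 5 of the 9 members and below them for 2, against 2732 (28.1%) and 2930 (30.1%) of all tested genes. The median difference was 0.33 over the 9 members and −0.01 over all tested genes. With 2 samples against 2, an exact permutation test of a single gene cannot give a two-sided p below 0.33.

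**Figure D1:**
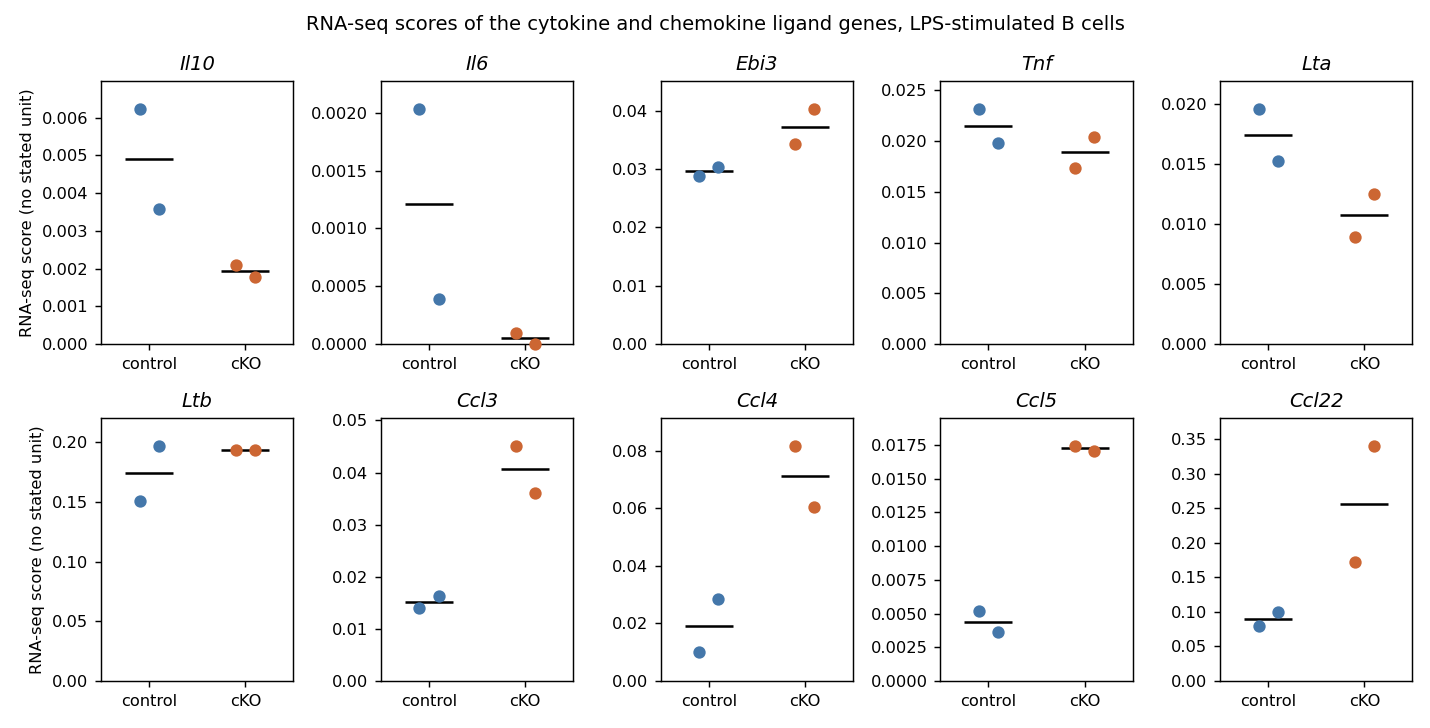
RNA-seq score, on a linear axis from 0 with its own range for each gene, in 2 control (blue) and 2 cKO (orange) samples of LPS-stimulated B cells, with the mean of each pair as a line. All 4 chemokine genes have both cKO points above both control points, Il10, Il6 and Lta have both below, and the points of Tnf and Ltb overlap.

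Ccl3 and Ccl5 were the members with the smallest error relative to their difference. Ccl3 encodes MIP-1α, and it lies on the minus strand of chromosome 11 (NCBIM37, chr11:83461346-83462857). Ccl3 had scores of 0.0141 and 0.0164 in control B cells and 0.0451 and 0.0361 in cKO B cells. The lower cKO value was above the higher control value by more than the spread within either group. Ccl3 rose by 1.41 on the log2 scale (SE 0.139, 95% confidence interval 1.06 to 1.75, limma adjusted p = 0.0267), a 2.65-fold difference. Ccl5 encodes RANTES, a chemokine best known from T cells and platelets (chr11:83339280-83344020, minus strand). Ccl5 had scores of 0.00517 and 0.0036 in control B cells and 0.0174 and 0.0171 in cKO B cells, which correspond to 49, 35, 185 and 159 reads under the assumption above. Only 3 of its 4 scores passed 0.005, and the control level was near the lower end of the tested genes. Ccl5 rose by 1.98 (SE 0.183, 95% confidence interval 1.53 to 2.43, limma adjusted p = 0.0215), or 3.93-fold.

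Ccl4 and Ccl22 differed by as much but with a wider spread, and neither passed the threshold. Ccl4 encodes MIP-1β, the close relative of the Ccl3 product, and lies beside Ccl3 on the opposite strand (chr11:83476086-83478185). Ccl4 had scores of 0.00995 and 0.0286 in control B cells and 0.0817 and 0.0606 in cKO B cells. The groups did not overlap, and the higher control score was 2.87 times the lower one. The difference was 2.05 (SE 0.467, 95% confidence interval 0.90 to 3.20, limma adjusted p = 0.0991). Ccl22 encodes MDC, a ligand of Ccr4 on helper and regulatory T cells (chr8:97269490-97275599, plus strand). Ccl22 had scores of 0.08 and 0.0993 in control B cells and 0.172 and 0.340 in cKO B cells. Here the spread lay in the cKO pair, where the higher score was 1.98 times the lower one. The difference was 1.44 (SE 0.311, 95% confidence interval 0.67 to 2.21, limma adjusted p = 0.0912).

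The number of calls changed with each sample left out. In each of these fits 1 group has a single sample, which is assumed to vary like the pair of the other group. A gene's own spread then comes from that pair alone, and limma moderates it towards a trend over all tested genes. Without cKO 1 or without cKO 2, limma called 0 genes of the 9727 in either direction, although 519 and 982 genes on the lower side and 428 and 767 on the higher side had an unadjusted p under 0.05. The difference of Ccl3 was then 1.24 (adjusted p = 0.130) or 1.57 (adjusted p = 0.0538), and that of Ccl5 was 1.96 (adjusted p = 0.130) or 1.99 (adjusted p = 0.0783), by limma. Without control 2, the number of genes called was 391 lower and 439 higher, and Ccl3, Ccl4, Ccl5 and Ccl22 all passed, with limma adjusted p of 0.00504, 0.00247, 0.00314 and 0.0410. Without control 1, the numbers were 161 and 136, and Ccl4 passed with a difference of 1.30 (limma adjusted p = 0.0150). Over all alternatives the limma adjusted p ranged from 0.00229 to 0.203 for Ccl3, from 0.000718 to 0.203 for Ccl5, from 0.00247 to 0.404 for Ccl4 and from 0.00247 to 0.268 for Ccl22.

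**Figure D2:**
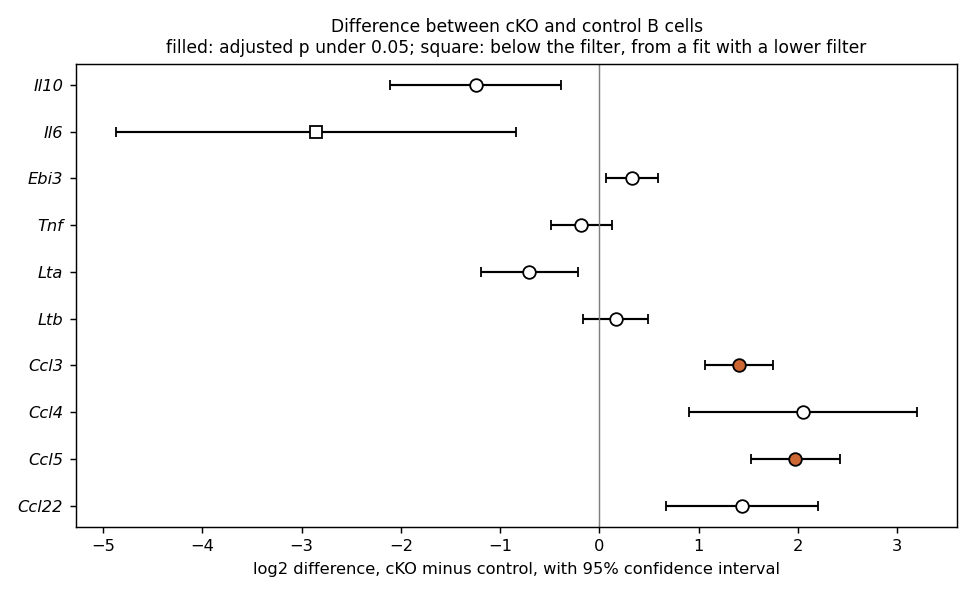
Log2 difference of the scores, cKO minus control, with its 95% confidence interval from limma (2 control and 2 cKO samples), for each member. Filled points (Ccl3 and Ccl5) have an adjusted p under 0.05, and the square marks Il6, which was below the filter of the main fit and comes from a fit with the filter lowered to 0.0005.

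The cytokine genes Il10 and Il6 had lower scores in both cKO samples, at low levels. Il10 (chr1:132916422-132921551, plus strand) is in the study's own list of genes lower in these samples, and its direction is therefore no independent evidence. Il10 had scores of 0.00622 and 0.00357 in control B cells and 0.0021 and 0.00178 in cKO B cells, or 145, 86, 55 and 41 reads under the assumption above. It was tested only because control 1 passed 0.005, the group where it is high. The difference was −1.24 (SE 0.350, 95% confidence interval −2.11 to −0.38, limma adjusted p = 0.132), and the control scores differed 1.74-fold between themselves. It was −0.85 without control 1 (limma adjusted p = 0.338) and −1.64 without control 2 (limma adjusted p = 0.0200), and over all alternatives the adjusted p ranged from 0.0200 to 0.405.

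Il6 (chr5:30339701-30346508, plus strand) was too low to judge. Its scores were 0.00203 and 0.00039 in control B cells and 0.0001 and 0 in cKO B cells, which would be 39, 8, 2 and 0 reads. Control 1 alone held most of the signal, at 5.21 times the score of control 2. In a fit with the filter lowered to 0.0005 the difference was −2.85 (SE 0.815, limma adjusted p = 0.158). That value depends on the constant added before the logarithm, and it ranged from −4.77 to −0.97 over the alternatives.

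Ebi3 (chr17:56092046-56096444, plus strand) lay on the other side. It had scores of 0.0288 and 0.0304 in control B cells and 0.0343 and 0.0403 in cKO B cells, with the pairs close to each other but apart. The difference was 0.33 (SE 0.106, 95% confidence interval 0.07 to 0.59, limma adjusted p = 0.167). A long noncoding RNA gene on the opposite strand, Gm16712, overlaps Ebi3 in the annotation. The study does not state that strand was used in counting, so reads of the pair cannot be told apart. Of the partners of the Ebi3 protein, Il12a, the other subunit of IL-35, had scores of 0.0158 and 0.0148 in control B cells and 0.0111 and 0.0121 in cKO B cells (difference −0.40, limma adjusted p = 0.114). Il27, the other subunit of IL-27, was listed at 0 in 3 samples and at 0.00009 in cKO 1.

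The TNF family ligand genes lie next to each other in the major histocompatibility complex on chromosome 17, in the order Ltb (chr17:35331384-35333265, plus strand), Tnf (chr17:35336326-35338952, minus strand) and Lta (chr17:35340110-35342296, minus strand). None of the 3 passed the test in the fit of all 4 samples. Lta had scores of 0.0196 and 0.0153 in control B cells and 0.00891 and 0.0126 in cKO B cells. The pairs did not overlap, with a difference of −0.70 (SE 0.198, 95% confidence interval −1.19 to −0.22, limma adjusted p = 0.132). Tnf had scores of 0.0232 and 0.0198 in control B cells and 0.0174 and 0.0205 in cKO B cells. Here cKO 2 exceeded control 2, and the difference of −0.18 (SE 0.125, 95% confidence interval −0.49 to 0.13, limma adjusted p = 0.426) was within the spread. Ltb, which B cells and other lymphocytes express, had scores of 0.151 and 0.197 in control B cells and 0.193 in both cKO samples. Its groups overlapped, with a difference of 0.16 (SE 0.134, 95% confidence interval −0.17 to 0.50, limma adjusted p = 0.493).

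Since control 2 stood apart at H2-Ea-ps in the same chromosomal region, the values without it are given for these genes. The difference was then −0.88 for Lta (limma adjusted p = 0.0495), −0.29 for Tnf (limma adjusted p = 0.220) and 0.36 for Ltb (limma adjusted p = 0.0674). Over all alternatives, the limma adjusted p of Lta ranged from 0.0354 to 0.519, that of Tnf from 0.187 to 0.908 and that of Ltb from 0.0674 to 0.931. Within 50 kb of the 3 genes, the annotation of NCBIM37 holds 13 other genes, of which 5 were tested. Their differences ranged from −0.41 to 0.10, and 0 were called by limma, with 0 at an unadjusted p under 0.05. Around all 10 members there were 40 such neighbours, 11 of them tested, with differences from −0.41 to 0.22 and 0 called by limma (1 at an unadjusted p under 0.05).

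Because the scores appear to be per exon base, levels may be set side by side between genes. In control B cells the order of the mean scores was Ltb (0.174), Ccl22 (0.0897), Ebi3 (0.0296), Tnf (0.0215), Ccl4 (0.0193), Lta (0.0174), Ccl3 (0.0152), Il10 (0.00490), Ccl5 (0.00439) and Il6 (0.00121). Among Tnf, Ccl4, Lta and Ccl3 the ranges of the 2 samples overlapped from each gene to the next, and so did those of Il10 and Ccl5. In cKO B cells the order was Ccl22 (0.256), Ltb (0.193), Ccl4 (0.0712), Ccl3 (0.0406), Ebi3 (0.0373), Tnf (0.0189), Ccl5 (0.0173), Lta (0.0107), Il10 (0.00194) and Il6 (0.00005). There the ranges overlapped for Ccl22 and Ltb, for Ccl3 and Ebi3, and for Tnf and Ccl5. Ltb was 469th and Ccl22 950th of the 9727 tested genes by mean control score, whereas Il10 was 9302nd.

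The κB site, the DNA element to which NF-κB binds, was looked for by its consensus on both strands in the 250 bases before each start in the RefSeq promoter table (GRCm38.p6). Of the 10 members 7 matched that table, all but Il10, Ccl4 and Ccl5. The consensus was found in Il6, Ebi3 and Ltb, that is in 3 of 7, and in 7.25% of all 32851 promoters. In Il6 and in Ebi3 it began at the same place, position −44 counted from the start. The promoter of Ccl3 held no match in this window. The part of κB sites in the differences between the groups was not tested. The promoters of Il6, Ebi3 and Ccl3 are shown 5′ to 3′ on the strand of the gene, with the κB match in capitals.
Il6 (GRCm38.p6, chr5:30012864-30013113, plus strand): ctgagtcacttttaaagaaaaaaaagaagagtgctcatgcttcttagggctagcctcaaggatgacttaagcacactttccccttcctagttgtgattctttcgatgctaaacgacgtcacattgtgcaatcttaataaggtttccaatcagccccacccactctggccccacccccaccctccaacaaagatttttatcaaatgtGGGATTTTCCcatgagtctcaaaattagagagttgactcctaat
Ebi3 (GRCm38.p6, chr17:55952373-55952622, plus strand): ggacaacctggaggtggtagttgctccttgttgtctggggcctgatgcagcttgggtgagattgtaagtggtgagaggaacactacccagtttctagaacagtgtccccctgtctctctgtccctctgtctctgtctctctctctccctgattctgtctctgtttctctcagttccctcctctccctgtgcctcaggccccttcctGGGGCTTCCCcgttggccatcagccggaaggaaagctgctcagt
Ccl3 (GRCm38.p6, chr11:83649379-83649628, minus strand): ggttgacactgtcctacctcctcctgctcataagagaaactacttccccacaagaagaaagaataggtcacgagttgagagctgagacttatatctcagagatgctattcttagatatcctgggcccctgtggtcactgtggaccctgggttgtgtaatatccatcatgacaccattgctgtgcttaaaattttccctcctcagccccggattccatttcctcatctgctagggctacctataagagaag

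In Ltb the match was GGAAAGTCCC, at position −87. TATAAA, the core of the TATA box, was found on either strand in Tnf, at position −29, and in Lta, at position −167, against 12.4% of all promoters. A match is a description of these letters and not a measured binding site.

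Messenger RNAs of many cytokines carry the pentamer ATTTA in the 3′ untranslated region, where it recruits proteins that hasten their decay. In the longest annotated 3′ region of each gene (GENCODE, NCBIM37), Tnf held 8 pentamers, Il10 held 6, Il6 and Ccl3 held 5 each, Lta held 3, Ccl4 and Ccl22 held 2 each, Ebi3 held 1, and Ltb and Ccl5 held 0. Over 19915 genes the median was 1, 61.3% held at least 1, 12.6% held at least as many as Il10, and 7.22% at least as many as Tnf. These shares do not allow for the length of the region. Counted per kb, 1.96% of genes held at least as many as Il10 and 1.21% at least as many as Tnf. Among the members with any pentamer, that share ran from 0.778% for Ccl3 to 48% for Ccl22. The longer form TTATTTATT occurred 5 times in Tnf and 1 time in Lta, against 6.52% of genes with any. The part of these pentamers in the differences between the groups was not tested. The 30 bases with the most pentamers are shown for Tnf, which holds the most, Il10 and the called member Ccl3, 5′ to 3′ on the strand of the gene, with the pentamers in capitals.
Tnf (NCBIM37, chr17:35336622-35336651, minus strand): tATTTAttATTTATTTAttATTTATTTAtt
Il10 (NCBIM37, chr1:132920961-132920990, plus strand): ctctctccgaaatATTTAttacctctgata
Ccl3 (NCBIM37, chr11:83461577-83461606, minus strand): ttgaaattttATTTAATTTAatcctattgg

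Regulators of cytokine mRNA decay in general, not only those that bind this pentamer, were described as a list of 15 genes. Of these 14 were tested and 0 called by limma (5 at an unadjusted p under 0.05), with a median difference of 0.01. Zfp36l1, a relative of tristetraprolin and the highest of the list, had scores of 0.190 and 0.221 in control B cells and 0.272 and 0.254 in cKO B cells (limma adjusted p = 0.132). Hnrnpd, which encodes AUF1, had a difference of −0.14, and Khsrp, which encodes KSRP, had one of −0.18, with limma adjusted p of 0.358 and 0.301.

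The other chemokine ligands mostly had low scores. Of 29 listed, 28 were in the files, 5 were listed at 0 in all samples and 3 were tested. Ccl1, a ligand of Ccr8, rose, with scores of 0.00132 and 0.00172 in control B cells and 0.00711 and 0.00629 in cKO B cells (difference 2.08, limma adjusted p = 0.0338). It was tested only because the cKO samples, where it is high, passed 0.005. Cxcl2, a ligand for the neutrophil receptor Cxcr2, had scores of 0.00669 and 0.00276 in control B cells and 0.0142 and 0.0115 in cKO B cells. Its groups did not overlap, and the difference of 1.55 did not pass (limma adjusted p = 0.116). Cxcl3, which binds the same receptor, had overlapping groups, with a difference of 0.59 (limma adjusted p = 0.484).

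Among 27 other interleukin and growth factor ligands, 3 were tested and 4 were listed at 0 in every sample. Mif, a cytokine made by most cell types, fell by 0.68 (limma adjusted p = 0.0349), with scores of 0.265 and 0.239 in control B cells and 0.151 and 0.163 in cKO B cells. Il16 and Tgfb1 had differences of 0.25 and 0.05 (limma adjusted p = 0.186 and 0.747). Of 12 other TNF family ligands, 3 were tested and 0 called by limma (2 at an unadjusted p under 0.05). All 3 had both cKO scores above both control scores, as 28.1% of all tested genes did, and Tnfsf14 and Cd70 were tested only through the cKO group, where they are high. Tnfsf14, which encodes LIGHT, had scores of 0.00156 and 0.00251 in control B cells and 0.00516 and 0.0067 in cKO B cells (difference 1.52, limma adjusted p = 0.0812). Tnfsf9, the ligand of 4-1BB, had a difference of 0.62 and Cd70, the ligand of CD27, one of 0.77, with limma adjusted p of 0.118 and 0.283.

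None of the tested receptor genes was called by limma. The 9 receptors and partner subunits of the cytokines had 6 tested genes, 4 of them at an unadjusted p under 0.05, and a median of −0.06. Il10ra, the ligand-binding chain of the IL-10 receptor, had scores of 0.0359 and 0.0397 in control B cells and 0.0298 and 0.0255 in cKO B cells (difference −0.45, limma adjusted p = 0.113). Il10rb, its shared chain, had overlapping scores (difference −0.01, limma adjusted p = 0.992). Of the 4 TNF family receptors, 2 were tested, with 0 at an unadjusted p under 0.05. Tnfrsf1b, which encodes the second TNF receptor, and Tnfrsf14, which binds LIGHT and lymphotoxin α, had differences of 0.34 and −0.17 (limma adjusted p = 0.314 and 0.509). Of the 4 chemokine receptors, Ccr1, a receptor for Ccl3 and Ccl5, was the 1 tested. Its scores were 0.00702 and 0.00651 in control B cells and 0.00302 and 0.00424 in cKO B cells (difference −0.90, limma adjusted p = 0.105). It was tested only through the control group, where it is high. Of 8 genes of JAK-STAT signalling below these receptors, 6 were tested and 0 called by limma (1 at an unadjusted p under 0.05), with a median of 0.13. Jak1 and Stat3, signal carriers of the IL-10 and IL-6 receptors, had differences of 0.06 and 0.20 (limma adjusted p = 0.740 and 0.304).

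Transcription factors known to act on Il10 gave 3 lower calls among 11 tested genes of 13, against 1.25% of all tested genes. Prdm1, which encodes the plasma cell regulator Blimp-1, fell by 2.82 (limma adjusted p = 0.0429), with scores of 0.00835 and 0.00458 in control B cells and 0.00083 and 0.00075 in cKO B cells. It was tested only because control 1 passed 0.005, and like Il10 it is in the study's own list of genes lower in these samples. Batf, an AP-1 factor, fell by 0.96 (limma adjusted p = 0.0215), and its scores were 0.0608 and 0.0561 in control B cells and 0.0297 and 0.0303 in cKO B cells. Bhlhe40, known as a repressor of Il10 in T cells, fell by 0.62 (limma adjusted p = 0.0411). The other 8 tested factors had both cKO scores above both control scores, as 28.1% of all tested genes did, and did not pass. The list median was 0.17. The 5 genes whose scores followed Il10 most closely over the 4 samples were Asns, Eaf2, Slc31a2, Serpine2 and Psrc1, at Euclidean distances of 0.236 to 0.394 between centred log2 scores. All 5 are, like Il10, in the study's own list of genes lower in these samples, so that their nearness is no independent evidence. Asns was tested only through control 1, where it is high.

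Of 8 surface markers used to sort IL-10-producing B cells, 6 were tested, 1 fell and 1 rose. Both cKO scores lay above both control scores for 3 of the 6 tested and below them for 3, against 28.1% and 30.1% of all tested genes. Tigit, among the 3 below, was tested only through control 1, where it is high. Sdc1, among the 3 above, was tested only through the cKO group, where it is high. With genes below the filter included, the counts were 5 and 3 of the 8, for which no share over all genes was computed. Cd24a fell by 0.66 (limma adjusted p = 0.0306), from 0.342 and 0.322 to 0.206 and 0.215. Cd9 rose by 1.26 (limma adjusted p = 0.0496), from 0.0146 and 0.0222 to 0.0468 and 0.0395. Havcr1, which encodes Tim-1, had a difference of 0.77 (limma adjusted p = 0.180). Cd5, below the filter, had scores of 0.00094 and 0.00139 in control B cells and 0.0038 and 0.00453 in cKO B cells.

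Cell markers were read beside the chemokine results, since in these bulk samples fewer cells of a type and less RNA per cell cannot be told apart. All 10 B cell markers were tested, with summed scores of 5.45 and 5.92 in control B cells and 5.13 and 5.35 in cKO B cells. Cd79a and Fcer2a, which encodes CD23, fell, and Cd74, the invariant chain, was the highest at 2.57 to 2.83. Of 6 plasma cell markers in the files, 5 were tested, with sums of 0.314 and 0.253 in control B cells and 0.273 and 0.224 in cKO B cells. Prdm1 was the 1 called, and Igj, the antibody joining chain, had a difference of −0.86 (limma adjusted p = 0.130). The other 3 had differences above 0. That of Sdc1, the gene of CD138, was 0.77, with groups that did not overlap (limma adjusted p = 0.116). Sdc1 was tested only through the cKO group, where it is high. The difference was 0.15 for Irf4 and 0.11 for Xbp1, and the list median was 0.11.

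Of 15 myeloid markers in the files, 6 were tested and 0 were called by limma (3 at an unadjusted p under 0.05). Both cKO scores lay above both control scores for 4 of the 6, against 28.1% of all tested genes. The median difference of the 6 was 0.74. The summed score of the list was 0.383 and 0.3996 in control B cells and 0.491 and 0.479 in cKO B cells. Lyz2, the lysozyme of macrophages and granulocytes, had scores of 0.0205 and 0.0112 in control B cells and 0.0485 and 0.0329 in cKO B cells (difference 1.39, limma adjusted p = 0.0961), and so was higher where the chemokines were higher. Lyz1 had a difference of 1.46 (limma adjusted p = 0.0986) and Cd68 one of 0.75 (limma adjusted p = 0.225). Lyz1 was tested only through the cKO group, where it is high. No share over all genes was computed with genes below the filter included. On that set, both cKO scores lay above both control scores for 7 of the 15 and below them for 0. Among these, Cd14 had scores of 0.00281 and 0.00173 in control B cells and 0.00484 and 0.00433 in cKO B cells, and Csf1r and Emr1 also lay higher in both cKO samples. Itgam, Cybb and Cst3 had the highest scores, with differences of 0.00, 0.02 and 0.73. Elane and S100a9 were at 0 in all samples, and Mpo and Mertk did not exceed 0.00009. The part of myeloid cells in the chemokine result was not tested.

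The T cell markers had 2 tested genes of 12, Cd2 and Lck, and 0 calls by limma (1 at an unadjusted p under 0.05), with sums of 0.0629 and 0.0735 in control B cells and 0.106 and 0.103 in cKO B cells. With the genes below the filter included, both cKO scores lay above both control scores for 7 of the 12 and below them for 1. Here too no share over all genes was computed. Thy1 had scores of 0.00003 in both control samples and 0.00069 and 0.00085 in cKO B cells, Cd5 is given above, and Cd3e did not exceed 0.0002 in any sample. Lck had a difference of 0.83 (limma adjusted p = 0.0734). None of the 8 NK cell markers or of the 6 mast cell and basophil markers reached the filter. The NK cell sum was 0.00118 and 0.00135 in control B cells and 0.00275 and 0.0021 in cKO B cells, with Nkg7 at 0.00041 and 0.00033 against 0.00175 and 0.00124. The mast cell and basophil sum was 0.00024 and 0.00008 in control B cells and 0.0005 and 0.00146 in cKO B cells. Kit made up most of that sum in cKO B cells, at 0.00048 and 0.00146, against 0.00013 and 0.00008 in control B cells. Cpa3, Mcpt8 and Fcer1a were at 0 in all samples. Prf1, an NK cell marker, went the other way. Its scores were 0.00057 and 0.00061 in control B cells and 0.00051 and 0.00022 in cKO B cells. Both sums were higher in both cKO samples, as the chemokines were, but at scores far under the filter. The dendritic cell markers had 3 tested genes of 7 and 0 calls by limma (1 at an unadjusted p under 0.05), with sums of 0.109 and 0.0920 in control B cells and 0.0931 and 0.0884 in cKO B cells. Flt3 among them had scores of 0.0131 and 0.0055 in control B cells and 0.00101 and 0.002 in cKO B cells (limma adjusted p = 0.0767). It was tested only through the control group, where it is high. The erythroid markers had 2 tested genes, Hbb-b1 and Hbb-b2, with 0 calls by limma (0 at an unadjusted p under 0.05). Both were tested only through control 1, where they are high. The erythroid sum was 0.0134 in control 1 against 0.00218 to 0.00263 in the other samples. The part of these cells in the results was not tested.

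**Figure D3:**
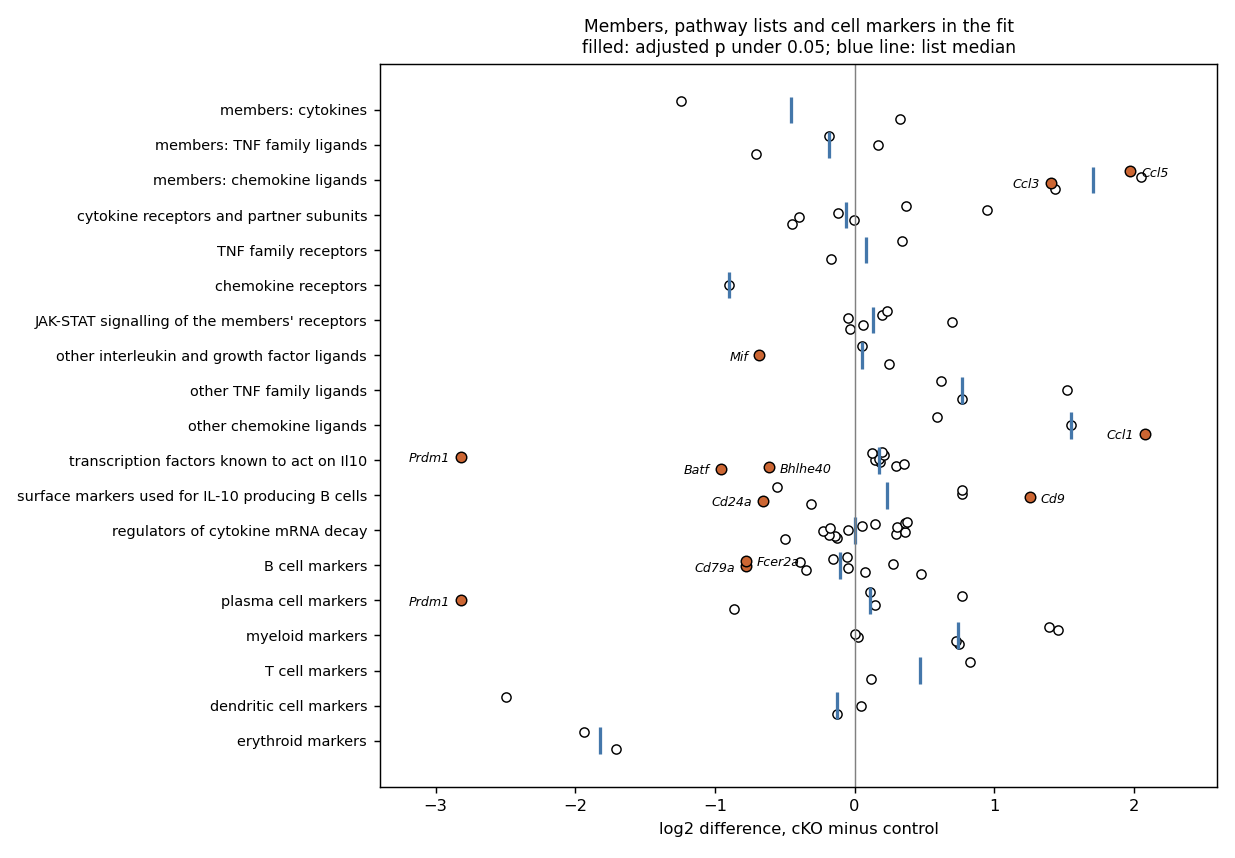
Log2 difference, cKO minus control, of each tested gene (points, 2 control and 2 cKO samples) in the members and in the lists of related genes and cell markers, with the list median as a blue line. Filled points have a limma adjusted p under 0.05 and are named. The chemokine ligand rows lie to the right of 0, as do the other TNF family ligands, the myeloid markers and the T cell markers, and the receptor and mRNA decay lists hold no filled point.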

How the data were processed

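RNA-seq was done on 4 samples of LPS-stimulated splenic B cells, 2 control and 2 cKO. Per the study's methods and the submitters' processing notes, the authors aligned reads to the mm9 genome by TopHat (TopHat2 2.0), with CASAVA 1.8, Bowtie, SAMtools and bedtools also named, and discarded those of low base quality or from ribosomal and transfer RNA. The deposited score is given per sample for 30041 genes. How the score was made from mapped reads is not given in the sources used here, so no count test was run. Depth was inferred from the steps of low scores, and 75.4 to 82.1% of these lay within 0.2 of a step. The depth was chosen for the best match to steps, and part of the scores would lie that close at any depth. The share is therefore no separate test of the inferred depth.

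The fit used limma 3.58.1 (R 4.3.3, lmFit and eBayes with a variance trend, no block) on log2(score + 0.0001), with genes kept if any sample reached 0.005 and Benjamini-Hochberg adjustment over 9727 genes. The script was tested on simulated data. Tables were made with Python 3.11.15 and pandas 2.3.3. Other filters, pseudocounts, scalings, the replicate block and leaving out each sample were tried as alternatives.

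The 10 members and all lists were chosen with earlier results of these data known. Named genes are the members, Nfkbiz, the called genes of each list (with the highest-scoring genes up to 3), neighbours within 50 kb and the 5 genes nearest to Il10. Other list genes, H2-Ea-ps and the genes named beside it were named after their values were seen. Some genes under this rule are left unreported. Gene positions and 3′ regions come from GENCODE on NCBIM37 (mm9), and promoters from RefSeq on GRCm38.p6. These builds were not mixed.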

Additional observations from a re-analysis of the deposited data

How the results depend on the processing

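Of 132 values of the members' differences under the alternatives, 115 kept their direction and their side of the threshold, 7 lost the call, 9 gained one and 1 reversed. The reversal was Ltb without control 1, and leaving out 1 sample each gave it values from −0.026 to 0.36. No alternative moved the median of all genes by 0.1.

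Counts of called genes are given as lower and higher in cKO B cells. With no filter limma called 0 and 0 of 21582 genes (1538 and 1665 at an unadjusted p under 0.05), and so 0 members on the higher side and 0 and 0 genes of the related lists, against 5 and 2 in the fit reported. With scores above 0.05 only, when 3 members remained, 35 genes were higher, with 0 members and 0 list genes. Without the variance trend the counts were 22 and 11 genes, 1 higher member (Ccl5) and 1 and 1 list genes. Quantile normalization left 1 higher list gene. The cause of these changes was not tested, other than the number of genes left by a filter.

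Leaving out 1 sample each gave 0 to 391 lower and 0 to 439 higher genes, 0 to 2 lower and 0 to 4 higher members, and 0 to 6 lower and 0 to 9 higher list genes.

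The numbers were not taken as pairs, because the labels say nothing of a shared litter, culture or day. Same-numbered samples did not deviate together (Pearson −0.145, Spearman −0.291 over 9727 genes). With 2 samples in each group, that value cannot show whether they shared a litter, culture or day. The replicate block gave 180 lower and 177 higher genes, 4 higher members (Ccl3, Ccl4, Ccl5 and Ccl22) and 7 higher list genes. Crossed pairing as the block, added after seeing the data, gave 230 and 212 genes, 1 lower and 3 higher members, and 4 higher list genes. At these depths Il6 could not be judged.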
